A study of Homo sapiens with 10 samples.

Results

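Nuclear pore and nuclear transport genes were followed in MOLT-4, a line of human leukaemic T cells, over 6 h of treatment with MABL, an antibody against CD47. The 34 genes were taken by symbol from the platform annotation: 4 of the RAN cycle, 10 importins, 3 exportins and 17 nucleoporins, of 11963 genes with a probe set of their own. On the Affymetrix arrays used, 85 sets of short probes read these genes. Of the 34 genes, 17 were bright enough to be tested, of 2819 such genes on the array. There were 10 arrays, 2 at 0 h and 2 at each later time, which were 0.5 h, 1 h, 3 h and 6 h. Per the labels all of them, 0 h included, carried MABL at 10 ug/mL together with GAM, an unexplained abbreviation, at 50 ug/mL. No untreated cells kept for the same times were analysed here, so antibody, GAM, time in culture and handling cannot be told apart. Whether the 2 arrays of a time stand for separate cultures is not said, so p-values measure the spread of these samples alone, and it may be technical.

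The nuclear pore is a ring of nucleoporins in the nuclear envelope, with a scaffold, a central channel filled with phenylalanine-glycine repeats, cytoplasmic filaments and a nuclear basket. Importins carry proteins inwards and exportins carry proteins and RNAs outwards. The direction comes from the small GTPase RAN, which is bound to GTP in the nucleus, where it strips cargo from importins and joins exportins to theirs, and to GDP in the cytoplasm. Dividing leukaemia cells use the same importins and several nucleoporins in mitosis, in spindle assembly and in rebuilding the envelope.

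Levels below are square roots of the deposited scores, read as log2 expression. This reading rests on the values and is not stated by the authors, and every size given as a log2 change or a fold depends on it. A probe set was tested if its level was 5 or more on at least 2 of the 10 arrays. A change was called at an adjusted p under 0.05, and every adjusted p is limma's, with Benjamini-Hochberg adjustment over the 4276 tested probe sets. Each gene is given by its brightest tested probe set unless another is named, with n = 2 arrays a time.

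The cells carried the T-lineage RNAs of their label: 11 of 17 T-lineage markers, CD3D, CD3E, CD1A and PTCRA among them, were at 5 or more on all arrays. None of 4 B-lineage, 5 myeloid and 1 erythroid marker reached that level on any array, while CD4, CD8A, CD7, CD2 and NOTCH3 did not either. Control signals, and the median of all tested probe sets, moved with time. The 18S ribosomal RNA control probe sets stood above 0 h by 1.41, 1.65, 2.16 and 2.63 at 0.5, 1, 3 and 6 h, and the bacterial and phage spike-in probe sets by 0.27, 0.25, 0.77 and 0.64. The median of all tested probe sets stood at -0.13, -0.29, -0.31 and -0.25 against 0 h. The 3′ minus 5′ difference of ACTB was 1.595 at 0 h and 1.64 to 1.75 later. That of GAPDH went the other way, from 0.3585 at 0 h to between 0.223 and 0.3095 later. Because the RNA comes from whole cultures, fewer cells with a transcript and less of it per cell cannot be told apart.

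At 1 h of treatment the transcripts of RAN, of the importins KPNA2, KPNB1, TNPO1 and IPO5, of the exportin XPO1 and of the nucleoporins NUP50, SEH1L and NUP205 were lower than at 0 h, by 0.55 (RAN) to 2.22 (NUP50) log2 units. The median change of the 17 tested genes was -0.94, beside -0.01 over all tested genes, and 1 gene, NUP93, was higher. That median was -0.30 with lower levels set to 5, beside -0.01 over all tested genes. Other filters change the genes that are counted. The median was -0.54 over all 34 genes with no filter, and -0.19 over 11 genes with the filter raised to 7. For these filters no median over all tested genes was computed. From 1 h to 6 h TNPO1, IPO5, NUP50 and the exportin CSE1L rose, while SEH1L, KPNB1 and RAN were still called lower than at 0 h. IPO5 needed its 6 h arrays to pass the filter, which favours its rise. NUP205 needed its 0 h arrays, which favours its fall.

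In counts, 3 of 17 were called lower at 0.5 h (17.6%, beside 13.8% of all tested genes), 9 at 1 h (52.9%, beside 22.6%), 6 at 3 h (35.3%, beside 25.8%) and 5 at 6 h (29.4%, beside 20.4%). The share at 0.5 h is near that of all genes. That at 1 h includes NUP205, which needed its 0 h arrays to pass the filter. The 1 call upwards fell at 1 h, where 4.04% of all genes were called higher. At 0.5, 3 and 6 h no member was called higher, and the shares of all genes were 1.7%, 2.34% and 4.4%. Medians of the 17 genes were -0.49 at 0.5 h, -0.46 at 3 h and -0.42 at 6 h, beside 0.03, -0.14 and -0.13 over all tested genes. The test over all times together called 10 of 17, beside 38.9% of all genes. At 1 or more times 11 genes were lower, and RAN was the 1 gene that was lower at all 4. For counts taken across times in this way, no share of all tested genes was computed, so they are description only. RANBP1, RANGAP1, RCC1, NUP62 and CSE1L were not called against 0 h at any time.

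These counts rest on few arrays and on the scale of each array. Where an array was left out or a covariate was used, the share of all tested genes was not computed. Whether the genes of the list lost more calls there than all genes did is therefore not known. At 1 h, 4 genes were called lower without 0 h replicate 1, 5 when the first 1 h array was left out and 2 when the other was. The count at 0.5 h was 1 without either 0 h array or 0.5 h replicate 2, and 5 without either 3 h array. At 3 h it was 2 without 3 h replicate 2, and at 3 h and 6 h it was 2 when 0 h replicate 1 was omitted, which also took the count over all times to 4. With the 18S signal as a covariate the counts at the 4 times were 0, 1, 0 and 0, with NUP50 at 1 h the gene that was left, and with the spike-in signal 1, 5, 0 and 0. Both signals were higher at every later time than at 0 h, so such a fit cannot separate signal from time. No conclusion is drawn from the calls lost there. When all arrays were set to an equal median, the medians of all tested genes moved to 0.15, 0.27, 0.18 and 0.12. Of the 17 genes 7, 9, 4 and 3 were then called lower, beside 14.4%, 17.9%, 17.4% and 13.5% of all genes, and 1 was called higher at each time, beside 7.13%, 32.8%, 23.5% and 14.8%.

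**Figure D1:**
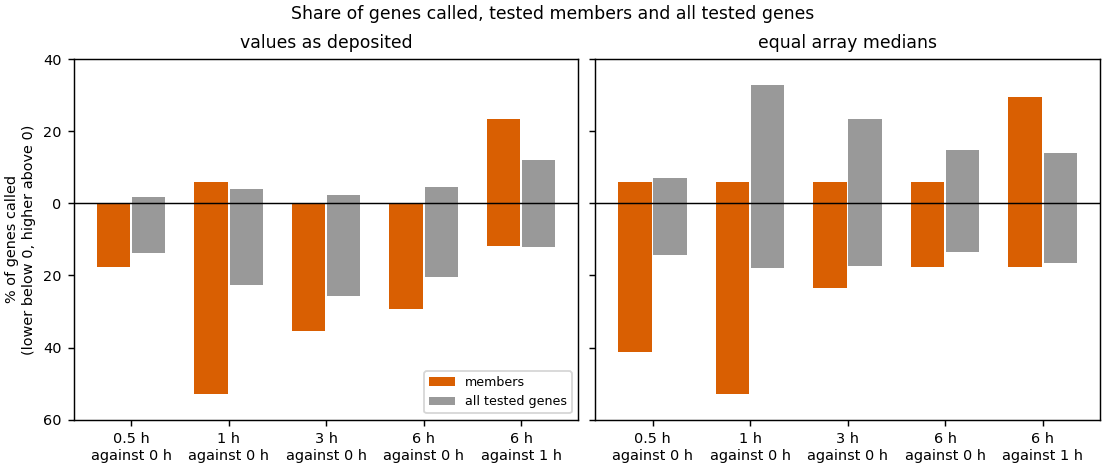
Percent of the 17 tested nuclear pore and transport genes (orange bars) and of all 2819 tested genes (grey bars) called higher (above 0) or lower (below 0) by limma in each of 5 comparisons, with the values as deposited on the left and with equal array medians on the right. With the values as deposited, at 1 h 52.9% of the transport genes and 22.6% of all genes were called lower.

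The submitters selected probe sets with both arrays of a time under 0.5 or over 2 times the 0 h level (a geometric mean of both arrays). By that rule 6 of the 17 genes (35.3%) were selected as lower at any time, beside 14.4% of all tested genes, and 0 as higher, beside 1.24%. They were NUP50 at 0.5, 1 and 3 h, SEH1L at all 4 later times, NUP205 and XPO1 at 0.5 and 1 h, KPNB1 at 1 and 3 h and CSE1L at 0.5 h. None of the 4 RAN cycle genes was among them, against 1 of 4 importins, 2 of 2 exportins and 3 of 7 nucleoporins. NUP205 needed its 0 h arrays to pass the filter, which favours its selection as lower.

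**Figure D2:**
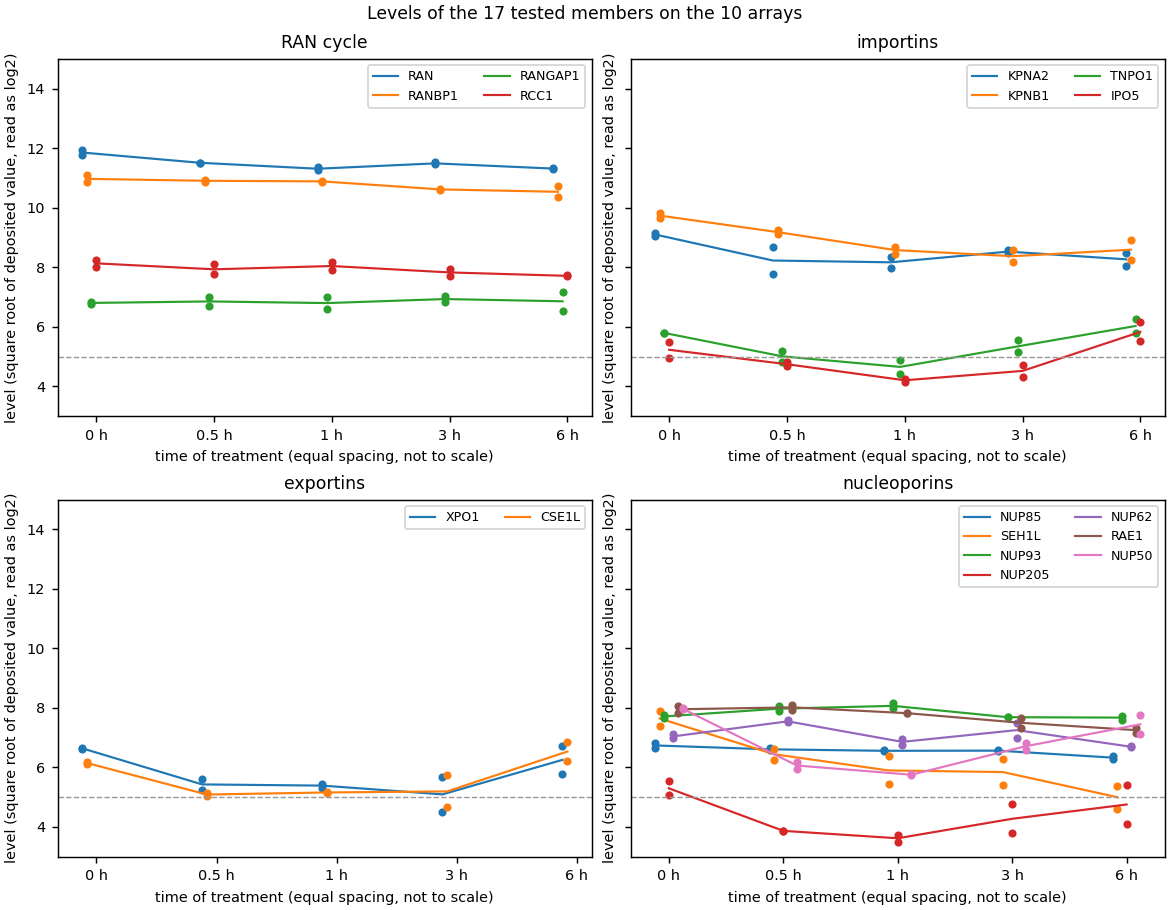
Levels of the tested nuclear pore and transport genes on each of the 10 arrays (points; square root of the deposited score, read as log2) by time of treatment, spaced equally and not to scale, in a panel per class, with lines through the means of 2 arrays and a dashed line at the testing level of 5. NUP50 lies at 7.99 and 7.96 at 0 h and at 5.74 and 5.77 at 1 h, while RANGAP1 lies between 6.55 and 7.17 throughout.

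In the RAN cycle RAN itself, the GTPase, fell, and its 3 regulators were not called at any time. The class had 1 of 4 genes called lower at each time, always RAN, and medians of -0.13, -0.09, -0.33 and -0.43 at 0.5, 1, 3 and 6 h. RAN read 11.95 and 11.77 at 0 h, 11.52 and 11.51 at 0.5 h, 11.36 and 11.27 at 1 h, 11.53 and 11.46 at 3 h, and 11.33 and 11.31 at 6 h. All 8 later arrays lay below both 0 h arrays. The changes were -0.35 (SE 0.100, adjusted p = 0.0499), -0.55 (adjusted p = 0.00503), -0.37 (adjusted p = 0.0285) and -0.54 (adjusted p = 0.00742), the largest being 0.684 times the 0 h level. A dimmer RAN probe set changed by -1.23, -1.34, -1.10 and -1.90 and was called at all 4 times (adjusted p = 0.00943, 0.00305, 0.00871 and 0.0014), so the 2 probe sets gave the same direction and different sizes. With equal array medians no call of the brighter probe set was left (adjusted p = 0.215, 0.0957, 0.726 and 0.101), whereas the dimmer was called at all 4 times (-1.10, -1.05, -0.78 and -1.65; adjusted p = 0.0011, 0.000818, 0.00645 and 8.9e-05). The call at 0.5 h was lost without any single array of the 10 (adjusted p = 0.0525 to 0.264). Omitting 0 h replicate 1 ended the calls at 3 h (0.16) and 6 h (0.0546), and omitting either 3 h array (0.0545 and 0.125) that at 3 h, while that at 1 h held without any 1 array.

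Because RAN was called at every time, its RefSeq promoter is shown, from 250 bases before to 50 after the start, at chr12:130871816-130872115 on the plus strand of GRCh38.p14. Capitals mark CACGTG, the E-box that MYC and its partner MAX are known to bind.
RAN promoter: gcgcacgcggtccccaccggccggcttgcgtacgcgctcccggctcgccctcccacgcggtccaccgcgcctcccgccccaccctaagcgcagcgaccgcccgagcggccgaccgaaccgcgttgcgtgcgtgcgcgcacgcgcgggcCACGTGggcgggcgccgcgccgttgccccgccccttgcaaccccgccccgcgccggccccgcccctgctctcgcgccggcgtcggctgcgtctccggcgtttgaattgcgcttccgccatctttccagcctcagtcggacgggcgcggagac

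RANBP1, which binds RAN-GTP and helps RANGAP1, read 11.09 and 10.86 at 0 h, 10.95 and 10.87 at 0.5 h, 10.87 and 10.91 at 1 h, 10.60 and 10.64 at 3 h, and 10.73 and 10.35 at 6 h. Its arrays at 3 and 6 h lay below both 0 h arrays, but the differences of -0.36 and -0.44 missed the threshold (adjusted p = 0.0962 and 0.054), and without 6 h replicate 1 the latter was -0.62 (adjusted p = 0.0315). Another RANBP1 probe set differed the other way, by 0.15, 0.14, 0.27 and 0.10 at 0.5, 1, 3 and 6 h, and was not called; with equal array medians it was called higher at 1 h (0.43, adjusted p = 0.0373) and 3 h (0.59, adjusted p = 0.0148). RCC1, the chromatin-bound exchange factor that loads RAN with GTP, read 8.26 and 8.01 at 0 h, 8.10 and 7.77 at 0.5 h, 8.19 and 7.90 at 1 h, 7.96 and 7.70 at 3 h, and 7.73 and 7.70 at 6 h. Its difference at 6 h was -0.42 (adjusted p = 0.101), with both arrays below those of 0 h. RANGAP1, which triggers GTP hydrolysis on the cytoplasmic side, read 6.83 and 6.78 at 0 h, 6.71 and 7.0 at 0.5 h, 6.99 and 6.61 at 1 h, 7.04 and 6.83 at 3 h, and 7.17 and 6.55 at 6 h. Its arrays overlapped those of 0 h at every time (adjusted p = 0.982 over all times), with the 6 h arrays the farthest apart. A dimmer RANGAP1 probe set was not called either, except with equal array medians at 3 h (0.34, adjusted p = 0.0478).

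The tested importins fell by 1 h. TNPO1 and IPO5 rose again from 1 h to 6 h, and KPNB1 was still lower than 0 h at 6 h. At 1 h all 4 tested importins were called lower, beside 22.6% of all tested genes. At each of the other times 1 of 4 was (TNPO1 at 0.5 h, KPNB1 at 3 and 6 h), beside 13.8%, 25.8% and 20.4%. Class medians were -0.67, -1.09, -0.64 and -0.30. With equal array medians 2, 4, 1 and 1 were lower, beside 14.4%, 17.9%, 17.4% and 13.5% of all tested genes. IPO5 was then called higher at 6 h (0.84, adjusted p = 0.0146), but it needed its 6 h arrays to pass the filter.

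KPNB1, importin beta 1, carries cargo bound to importin alpha through the pore. It read 9.83 and 9.65 at 0 h, 9.25 and 9.12 at 0.5 h, 8.70 and 8.46 at 1 h, 8.58 and 8.17 at 3 h, and 8.26 and 8.93 at 6 h. No later array reached either 0 h array. The change was -0.56 at 0.5 h (SE 0.229, adjusted p = 0.146), -1.16 at 1 h (adjusted p = 0.00655), -1.37 at 3 h (0.388 times the 0 h level, adjusted p = 0.00473) and -1.15 at 6 h (adjusted p = 0.00942). Of 5 tested KPNB1 probe sets, 1 passed the filter only through its 0 h arrays (5.71 and 5.36) and is not counted. The other 4 were all called lower at 3 h, by -1.48 to -1.21, and at 6 h, by -1.24 to -0.94, against 3 of 4 at 1 h and 1 of 4 at 0.5 h. Leaving out 0 h replicate 1 or 1 h replicate 2 ended the call at 1 h (adjusted p = 0.0538 and 0.0548), and that at 6 h was lost without 0 h replicate 1 (0.0683), whereas that at 3 h held without any single array.

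KPNA2, an importin alpha, is the adaptor that reads the classical nuclear localisation signal and is known to be abundant in dividing cells. Its arrays read 9.15 and 9.06 at 0 h, 8.69 and 7.77 at 0.5 h, 8.36 and 7.98 at 1 h, 8.59 and 8.47 at 3 h, and 8.05 and 8.49 at 6 h. All later arrays lay below 0 h, with the 0.5 h replicates far apart. The change of -0.94 at 1 h was called (SE 0.287, adjusted p = 0.0423), and those of -0.87, -0.58 and -0.84 at 0.5, 3 and 6 h were not (adjusted p = 0.0764, 0.175 and 0.0652). Another KPNA2 probe set was called lower at all 4 times, by -0.68, -0.99, -0.51 and -0.73. The brightest lost its 1 h call with either 0 h array left out (adjusted p = 0.176 and 0.112), either 1 h array (0.0695 and 0.208) or either 3 h array (0.0576), while without 0.5 h replicate 1 the change at 0.5 h was called (-1.33, adjusted p = 0.0203).

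TNPO1, transportin 1, imports RNA-binding proteins with a proline-tyrosine signal. It read 5.81 and 5.78 at 0 h, 5.19 and 4.83 at 0.5 h, 4.88 and 4.43 at 1 h, 5.55 and 5.14 at 3 h, and 5.81 and 6.25 at 6 h. The 1 h arrays were the lowest pair, and the 6 h arrays were at or above 0 h. Changes were -0.79 at 0.5 h (SE 0.223, adjusted p = 0.0462), -1.15 at 1 h (adjusted p = 0.00632), and -0.46 and 0.23 at 3 and 6 h, which were not called. From 1 h to 6 h TNPO1 rose by 1.38 (2.60 times, adjusted p = 0.00389), a call that held without any single array. The 0.5 h call was lost when either array of 0 h (adjusted p = 0.198 and 0.13) or of 0.5 h (0.0654 and 0.252) was left out, and that at 1 h without 1 h replicate 2 (0.0532).

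IPO5, which imports ribosomal proteins and histones, read 4.97 and 5.49 at 0 h, 4.67 and 4.82 at 0.5 h, 4.16 and 4.25 at 1 h, 4.73 and 4.31 at 3 h, and 5.51 and 6.15 at 6 h. Only 3 of its arrays were at 5 or more, 1 at 0 h and both at 6 h, so most of its course lies under the level used for testing. It needed its 6 h arrays to pass the filter, which favours a rise to 6 h. That rise is therefore given as a description. IPO5 dropped by 1.03 at 1 h (SE 0.251, adjusted p = 0.0175) and rose by 1.62 from 1 h to 6 h (3.08 times, adjusted p = 0.00331). With all lower levels set to 5 these were -0.25 (adjusted p = 0.469) and 0.83 (adjusted p = 0.0323). Leaving out 0 h replicate 2 (0.0998) or either 1 h array (0.0813 and 0.0747) also ended the call at 1 h, and the rise to 6 h held without any 1 array. Another IPO5 probe set, which was not tested, read 5.09 and 4.70 at 0 h, 3.45 and 3.51 at 1 h, and 3.69 and 3.75 at 6 h. Its 6 h arrays lay below both 0 h arrays and little above those of 1 h, so it did not show the same rise.

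**Figure D3:**
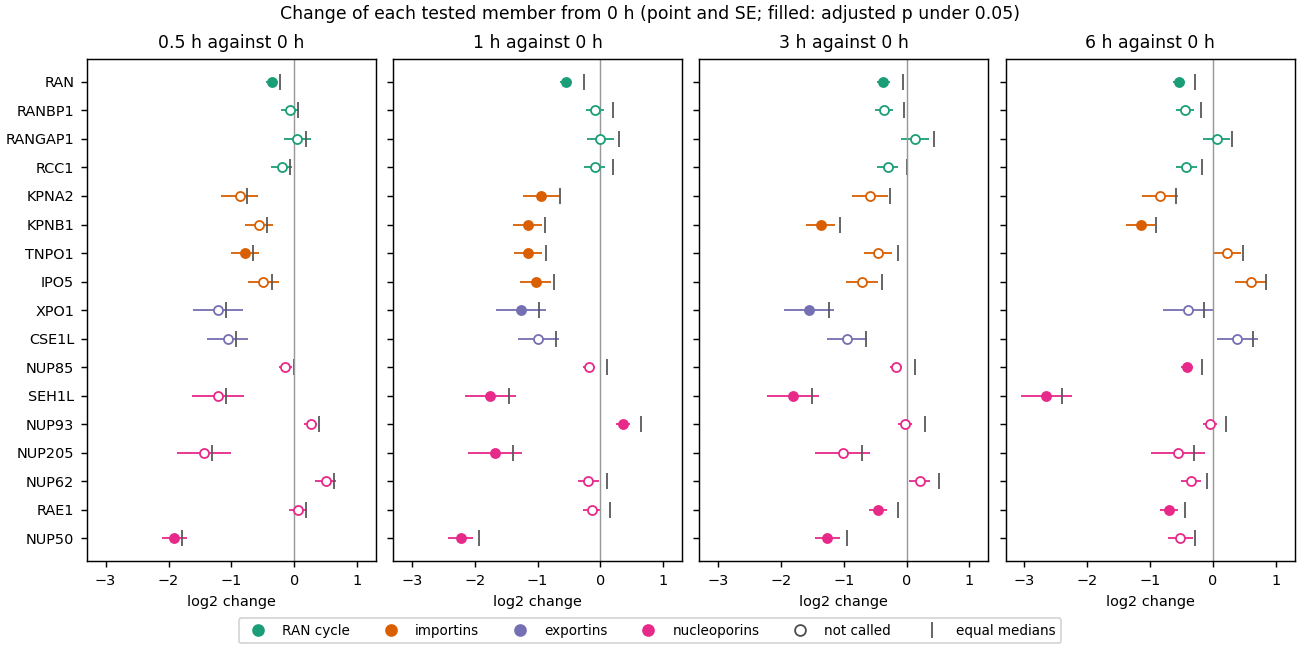
Log2 changes of the 17 tested genes from 0 h (points) with the standard error of the fit (bars) at 0.5, 1, 3 and 6 h; filled points were called by limma at an adjusted p under 0.05, and upright ticks show the change with equal array medians. SEH1L moves from -1.21 at 0.5 h to -2.65 at 6 h, NUP50 from -2.22 at 1 h to -0.52 at 6 h.

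Both tested exportins differed from 0 h by -1.55 to -0.95 between 0.5 h and 3 h, and at 6 h their differences from 0 h were -0.39 and 0.39. XPO1 was called lower at 1 and 3 h and CSE1L at no time, so 0, 1, 1 and 0 of 2 were lower. Of all tested genes 13.8%, 22.6%, 25.8% and 20.4% were. The class medians were -1.14, -1.12, -1.25 and 0.0. With equal array medians both were called lower at 0.5 and 1 h, beside 14.4% and 17.9% of all tested genes. XPO1, or CRM1, exports proteins with leucine-rich signals. Its arrays read 6.66 and 6.63 at 0 h, 5.62 and 5.24 at 0.5 h, 5.32 and 5.46 at 1 h, 5.69 and 4.50 at 3 h, and 5.79 and 6.72 at 6 h. The arrays of 0.5, 1 and 3 h all lay below 0 h, and those of 3 and 6 h were far apart. Changes were -1.21 (SE 0.399, adjusted p = 0.0781), -1.26 (adjusted p = 0.0484), -1.55 (adjusted p = 0.0229) and -0.39 at the 4 times. Either 0 h array left out ended the 3 h call (adjusted p = 0.11 and 0.0794), as did 3 h replicate 2 (0.114, with a change of -0.95). The 1 h call ended with the loss of either array of 0 h (0.176 and 0.139), 0.5 h (0.0694) or 1 h (0.175 and 0.138).

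CSE1L, the exportin that returns importin alpha to the cytoplasm, read 6.11 and 6.19 at 0 h, 5.15 and 5.03 at 0.5 h, 5.18 and 5.14 at 1 h, 5.73 and 4.66 at 3 h, and 6.23 and 6.84 at 6 h. The 0.5 and 1 h arrays lay together about a log2 unit under 0 h, and the 6 h arrays lay above it. Differences of -1.06, -0.99 and -0.95 at 0.5, 1 and 3 h missed the threshold (SE 0.323, adjusted p = 0.0591, 0.0533 and 0.0592). The 3 h arrays differed by more than a log2 unit, and without either of them the changes at 0.5 and 1 h were called (adjusted p = 0.0103 and 0.00767). From 1 h to 6 h CSE1L rose by 1.38 (2.60 times, adjusted p = 0.0186), a call that ended when either 1 h array (0.0834 and 0.0799) or 6 h replicate 2 (0.111) was omitted.

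Among the nucleoporins, NUP50 of the basket and SEH1L of the scaffold had the largest falls, NUP93 of the inner ring was higher at 1 h, and NUP85 and RAE1 were lower at 6 h. Of 7 tested, 1, 3, 3 and 3 were called lower at the 4 times, beside 13.8%, 22.6%, 25.8% and 20.4% of all tested genes. The share at 0.5 h (14.3%) is near that of all genes, and the count at 1 h includes NUP205. The medians were -0.14, -0.19, -0.46 and -0.52. Over all times together 5 of 7 were called, beside 38.9% of all tested genes.

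NUP50 sits at the nuclear basket, where it binds importin alpha and speeds the release of imported cargo. It read 7.99 and 7.96 at 0 h, 6.18 and 5.95 at 0.5 h, 5.74 and 5.77 at 1 h, 6.83 and 6.60 at 3 h, and 7.13 and 7.77 at 6 h. Replicates lay close together up to 3 h, and every later array lay below both 0 h arrays. Of 4 NUP50 probe sets only this 1 was tested. Another averaged 5.00 at 0 h, 4.82 at 1 h and 4.84 at 6 h, and a further 1 averaged 5.03, 4.45 and 4.65. Neither fell or rose as far, and both lay near or under the testing level. The last stayed between 2.17 and 2.20. The change of the tested probe set was -1.91 at 0.5 h (SE 0.199, adjusted p = 0.00291), -2.22 at 1 h (0.214 times the 0 h level, adjusted p = 0.000717), -1.26 at 3 h (adjusted p = 0.00397) and -0.52 at 6 h (adjusted p = 0.089). From 1 h to 6 h it rose by 1.70 (3.24 times, adjusted p = 0.00104). These 4 calls held without any single array, and without 6 h replicate 2 the 6 h change was called as well (-0.85, adjusted p = 0.0116).

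The promoter of NUP50 is shown because it had the largest early fall of the class, at chr22:45163675-45163974 on the plus strand of GRCh38.p14. Capitals mark the E-box CACGTG. They also mark CCGGAAG, which ETS factors bind, and the core of the NRF1 site, TGCGCA. Another RefSeq start of NUP50, at chr22:45164421-45164720, held none of the motifs searched.
NUP50 promoter: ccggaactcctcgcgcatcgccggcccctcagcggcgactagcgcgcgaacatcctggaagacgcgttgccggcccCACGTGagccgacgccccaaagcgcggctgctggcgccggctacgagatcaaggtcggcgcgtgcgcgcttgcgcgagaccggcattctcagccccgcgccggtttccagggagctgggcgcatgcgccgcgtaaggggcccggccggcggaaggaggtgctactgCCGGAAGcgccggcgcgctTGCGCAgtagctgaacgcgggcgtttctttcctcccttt

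SEH1L is a small beta-propeller of the Y complex, the scaffold's outer ring, and also belongs to the GATOR2 complex of amino acid sensing. It read 7.89 and 7.40 at 0 h, 6.63 and 6.26 at 0.5 h, 6.37 and 5.43 at 1 h, 6.28 and 5.41 at 3 h, and 5.38 and 4.62 at 6 h. The 6 h arrays were the lowest pair by their mean, and the replicates of 1, 3 and 6 h were far apart. It changed by -1.21 at 0.5 h (SE 0.411, adjusted p = 0.0858), -1.75 at 1 h (adjusted p = 0.0149), -1.81 at 3 h (adjusted p = 0.0142) and -2.65 at 6 h (0.159 times the 0 h level, adjusted p = 0.00386). Omitting 0 h replicate 1 ended the calls at 1 h (adjusted p = 0.106) and 3 h (0.102), as did omitting 1 h replicate 2 (0.104) and 3 h replicate 2 (0.0912) for their own times; that at 6 h held without any single array.

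The SEH1L promoter is shown beside that of NUP50 as the gene with the largest change at 6 h, at chr18:12947761-12948060 on the plus strand of GRCh38.p14. It is rich in G and holds a single motif of those searched, CCGGAAG, in capitals.
SEH1L promoter: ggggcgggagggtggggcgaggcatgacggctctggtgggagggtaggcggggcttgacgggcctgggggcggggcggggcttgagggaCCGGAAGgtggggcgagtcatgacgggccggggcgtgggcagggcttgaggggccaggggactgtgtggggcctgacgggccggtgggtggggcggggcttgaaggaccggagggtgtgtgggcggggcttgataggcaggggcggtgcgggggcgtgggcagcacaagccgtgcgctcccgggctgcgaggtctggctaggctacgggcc

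NUP85, the partner of SEH1L in the Y complex, read 6.82 and 6.66 at 0 h, 6.65 and 6.57 at 0.5 h, 6.55 and 6.57 at 1 h, 6.57 and 6.56 at 3 h, and 6.37 and 6.29 at 6 h. Its arrays lay closer together than those of SEH1L, and it was called at 6 h, at -0.41 (SE 0.098, adjusted p = 0.0175). Setting the arrays to equal medians ended that call (-0.17, adjusted p = 0.344), as did leaving out 0 h replicate 1 (0.107) or either 6 h array (0.053 and 0.0717).

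In the inner ring NUP93, which anchors the channel nucleoporins, was the 1 tested member called higher. It read 7.67 and 7.76 at 0 h, 7.89 and 8.06 at 0.5 h, 8.15 and 7.99 at 1 h, 7.70 and 7.68 at 3 h, and 7.61 and 7.74 at 6 h. The 0.5 and 1 h arrays lay above 0 h and the later ones overlapped it. The change of 0.36 at 1 h (SE 0.110, adjusted p = 0.0443) was lost when any of 8 single arrays was left out (adjusted p = 0.0526 to 0.201), and was 0.64 with equal array medians (adjusted p = 0.00372). Between 1 h and 6 h NUP93 fell by 0.39 (adjusted p = 0.0346), which was lost when either array of 1 h (0.173 and 0.0574) or of 6 h (0.137 and 0.0701) was left out.

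NUP205, a large scaffold protein that binds NUP93, read 5.54 and 5.06 at 0 h, 3.88 and 3.86 at 0.5 h, 3.51 and 3.73 at 1 h, 4.76 and 3.79 at 3 h, and 4.11 and 5.40 at 6 h. It was at 5 or more on 3 arrays, both of 0 h and 1 of 6 h, and most of its fall runs under the testing level. It needed its 0 h arrays to pass the filter, which favours a fall. That fall is therefore given as a description. NUP205 dropped by 1.68 at 1 h (SE 0.432, adjusted p = 0.0215), or by 0.30 with lower levels set to 5 (adjusted p = 0.263). The call ended without 0 h replicate 1 (0.14) or either array of 1 h (0.104 and 0.0816), and without 6 h replicate 1 its rise from 1 h to 6 h was called (1.78, adjusted p = 0.0212).

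NUP62, the glycosylated channel protein, read 6.98 and 7.11 at 0 h, 7.58 and 7.52 at 0.5 h, 6.96 and 6.76 at 1 h, 7.51 and 7.0 at 3 h, and 6.71 and 6.68 at 6 h. Its 0.5 h arrays were the highest and its 6 h arrays the lowest, and it was called over all times together (adjusted p = 0.0215) though at no single time against 0 h. At 0.5 h the difference was 0.50 (SE 0.165, adjusted p = 0.0776), and with equal array medians it was called at 0.5 h (0.63, adjusted p = 0.00899) and 3 h (0.52, adjusted p = 0.018).

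RAE1, an mRNA export factor that docks on NUP98, read 7.83 and 8.08 at 0 h, 8.11 and 7.93 at 0.5 h, 7.83 and 7.82 at 1 h, 7.66 and 7.34 at 3 h, and 7.17 and 7.34 at 6 h. Its level was near that of 0 h until 1 h and lower on the 4 arrays after that. It changed by -0.46 at 3 h (SE 0.145, adjusted p = 0.0486) and -0.70 at 6 h (adjusted p = 0.0107), and fell by 0.57 from 1 h to 6 h (adjusted p = 0.0243). Another RAE1 probe set was called at 6 h (-0.62, adjusted p = 0.0284) and from 1 h to 6 h (-0.79, adjusted p = 0.0123), but not at 3 h. Equal array medians ended the 3 h call (-0.14, adjusted p = 0.395). It held without 3 h replicate 1 and was lost without each of the 9 others (0.0592 to 0.246; -0.30 without 3 h replicate 2). The 6 h call ended when 0 h replicate 2 (0.0588) or 6 h replicate 1 (0.0667) was omitted, and that from 1 h to 6 h without any of its 4 arrays (0.058 to 0.109).

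Between 1 h and 6 h, a comparison that uses no 0 h array, TNPO1, IPO5, CSE1L and NUP50 rose and NUP93 and RAE1 fell. These are 23.5% and 11.8% of the 17 genes, beside 12.1% and 12.2% of all tested genes called higher and lower, and the medians were 0.01 and -0.06. The share called higher includes IPO5, which needed its 6 h arrays to pass the filter. With equal array medians 5 were higher, NUP205 being the addition, and 3 were lower, with SEH1L added, beside 14.0% and 16.5% of all genes. Neither fall was called when any 1 of the 4 arrays of 1 h and 6 h was left out, and without 6 h replicate 1 RANBP1 was called lower instead (-0.54, adjusted p = 0.0364). The comparison shares its 1 h and 6 h arrays with those against 0 h.

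The other 17 genes lay under the testing level, and their values are given as levels only. They were the importins KPNA1, KPNA3, KPNA4, KPNA6, IPO7 and IPO8, the exportin XPO7, and the nucleoporins NUP107, NUP133, NUP160, NUP155, NUP188, NUP54, NUP98, NUP88, NUP153 and TPR. Of these, 13 were at 5 or more on no array of any of their probe sets and 10 were below 4 on all. TPR, the large coiled-coil protein of the basket, ran from 3.39 to 3.62, and KPNA4, an importin alpha, from 2.87 to 2.94. IPO7, XPO7, NUP54 and NUP153 each had a probe set at 5 or more on 1 array, in 3 of the 4 genes at 0 h.

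NUP153, the basket protein that holds NUP50, read 5.20 and 4.13 at 0 h, 3.24 and 2.22 at 0.5 h, 2.88 and 2.49 at 1 h, 3.17 and 2.67 at 3 h, and 2.80 and 3.92 at 6 h. IPO7, an importer of ribosomal proteins, read 5.57 and 4.46 at 0 h, 3.73 and 3.36 at 0.5 h, 3.34 and 3.25 at 1 h, 4.23 and 4.05 at 3 h, and 4.05 and 4.80 at 6 h. In both, the arrays of 0.5 and 1 h lay below those of 0 h, whose replicates were more than a log2 unit apart. NUP54, which joins NUP62 in the channel, read 4.94 and 4.61 at 0 h, 3.62 and 3.66 at 0.5 h, 3.70 and 3.40 at 1 h, 3.69 and 3.70 at 3 h, and 4.81 and 5.23 at 6 h. NUP107 of the Y complex read 4.45 and 4.05 at 0 h, 3.11 and 2.73 at 0.5 h, 3.16 and 3.09 at 1 h, 3.11 and 2.84 at 3 h, and 4.17 and 4.61 at 6 h. These latter genes were low on the arrays of 0.5 to 3 h and at 6 h about where they began; the 4 were singled out after their values were seen, and none was tested.

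**Figure D4:**
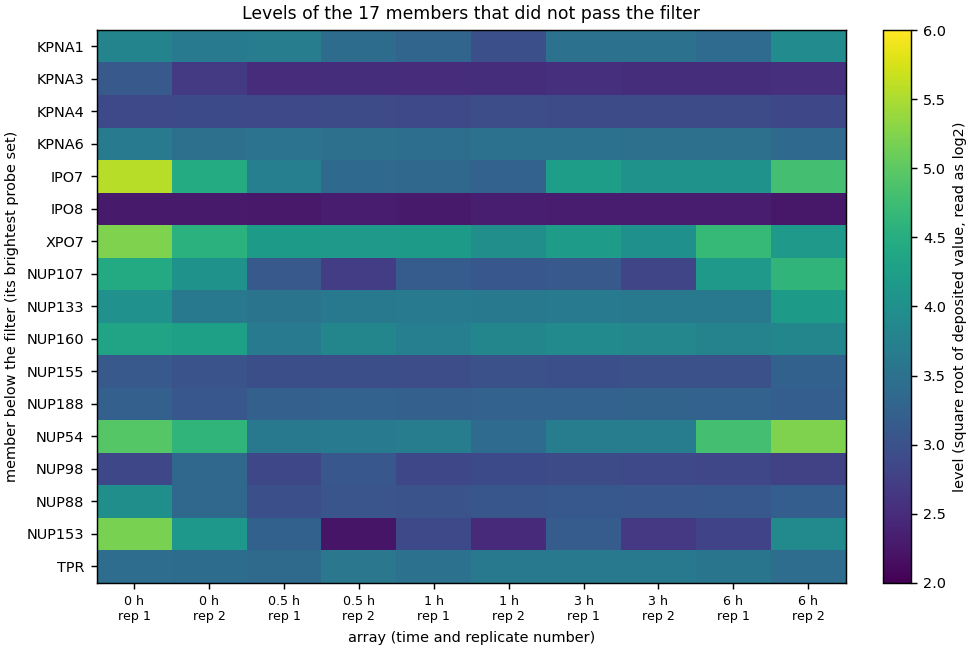
Heat map of the levels (colour, from dark blue at 2 to yellow at 6; square root of the deposited score, read as log2) of the 17 genes under the testing level, 1 row per gene by its brightest probe set and 1 column per array. NUP153, IPO7, NUP54 and NUP107, picked out after their values were seen, are lower on the arrays of 0.5 and 1 h than on those of 0 h. So are NUP160, NUP88 and XPO7, among others.

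Of 34 further nuclear pore and transport genes, 26 had a probe set and 14 were tested. In this list 3, 5, 5 and 3 of 14 were called lower at 0.5, 1, 3 and 6 h (21.4%, 35.7%, 35.7% and 21.4%, beside 13.8%, 22.6%, 25.8% and 20.4% of all tested genes) and 1, 1, 0 and 0 higher (beside 1.7%, 4.04%, 2.34% and 4.4%), with medians of 0.07, 0.03, -0.11 and -0.12, close to those of all tested genes. With equal array medians 4, 4, 4 and 3 were lower (beside 14.4%, 17.9%, 17.4% and 13.5%) and 1, 7, 3 and 1 higher (beside 7.13%, 32.8%, 23.5% and 14.8%). Between 1 h and 6 h, 1 was lower and 1 higher (beside 12.2% and 12.1%). Over all times 7 of 14 were called, beside 38.9% of all tested genes.

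XPOT, the exportin of transfer RNA, read 5.63 and 5.10 at 0 h and 3.59 on both arrays of 1 h. It passed the filter only through its 0 h arrays, which favours a fall. XPOT is among those counted as lower at 0.5, 1 and 3 h, with equal array medians as well. It is also the 1 counted as higher from 1 h to 6 h and is among the 7 called over all times. The counts of this list that include it, and its differences of -1.65, -1.77, -1.40 and -0.72, are therefore given as a description. TNPO3, which imports serine- and arginine-rich splicing factors, was called at all 4 times, at -0.74, -1.11, -1.20 and -0.89. NUP43, another Y complex protein, was called at all 4 as well, at -0.63, -1.04, -1.10 and -1.05. TNPO2, the close relative of TNPO1, had its largest fall at 6 h, at -0.93, after -0.58 at 1 h and -0.57 at 3 h, all called. With equal array medians its calls at 1 h (-0.30, adjusted p = 0.17) and 3 h (-0.26, adjusted p = 0.242) ended, and that at 6 h did not (-0.68, adjusted p = 0.017). NXT1, the partner of the mRNA exporter NXF1, was higher at 1 h (0.42, adjusted p = 0.0257) and fell by 0.69 from 1 h to 6 h. XPO6, the exportin of actin and profilin, was higher at 0.5 h (0.39, adjusted p = 0.0363). The effect of leaving out single arrays was not computed for these genes.

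RefSeq promoters were matched for 30 of the 34 member genes, which gave 39 starts, and were searched on both strands for 5 short motifs, with no overlap between motifs required or barred. CACGTG stood in 7 of the 39 (17.9%, beside 7.26% of 35116 promoters of the same length): those of RAN, RCC1, XPO1, KPNA3, IPO7, NUP50 and NUP188. CCGGAAG stood in 7 (17.9%, beside 10.3%), of which NUP50, SEH1L and RCC1 belong to tested genes. TGCGCA stood in 6 (15.4%, beside 8.24%), CCAAT, which NF-Y binds, in 15 (38.5%, beside 34.6%), and TATAAA in 2 (5.13%, beside 11.5%). Median GC content was 63.7% against 58.7%. Genes with CACGTG include NUP50 and XPO1, which fell, and RCC1, which was not called, and SEH1L and KPNA2, which fell, hold none in this window. A match is a run of letters and no evidence of binding.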

How the data were processed

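The values are deposited scores per probe set made by the authors with GCRMA, per the submitters' processing notes; version, scale and genome build are not given in the sources used here. Square roots were read as log2. Of 22283 probe sets, 68 controls were left out and 4276 tested, those with a deposited score of 25 or more on at least 2 of 10 arrays. Names came from the platform annotation where a probe set had 1 symbol (19071; 1043 had several, 2169 none); 19059 were matched to RefSeq symbols.

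limma 3.58.1 in R 4.3.3 (lmFit, eBayes) was fitted to the 10 arrays, with time as its single factor (5 residual degrees of freedom, prior 3.06, prior SD 0.139), and was tested on simulated data. Changes are called at an adjusted p under 0.05 (Benjamini-Hochberg); genes are counted by their brightest tested probe set. The number of arrays limits the precision. Replicate numbers share a label only: deviations of same-numbered arrays correlated at -0.231 to 0.147 over 10 pairs of times.

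The members and lists were chosen with earlier results of these data known. By rule, every member is named, array values are given for up to 4 RAN cycle genes, 6 importins, 3 exportins and 8 nucleoporins with the smallest p over all times, and up to 6 other pathway genes called over all times are named. Alternatives were other scalings, filters, floors, transformations, covariates, a replicate block, the dimmest tested probe set and leaving out each array.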

Additional observations from a re-analysis of the deposited data

Results flagged for a closer look

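The change between 1 h and 6 h differed from 0 by its own test (limma, adjusted p under 0.05) in 6 genes, so that their differences from 0 h at these times differ from each other. NUP50 was higher at 6 h by 1.70, IPO5 by 1.62, TNPO1 by 1.38 and CSE1L by 1.38 on the log2 scale, while RAE1 changed by -0.57 and NUP93 by -0.39. The first 3 held without any single array, and the others were lost without some. IPO5 needed its 6 h arrays to pass the filter, which favours its rise.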

How the results depend on the processing

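No called change of a member reversed under the alternatives run. Of 30 called member changes, 9 were kept without any 1 array. Leaving out 1 array gave 1 to 5, 2 to 9, 2 to 7 and 2 to 6 members lower and 0 to 1, 0 to 1, 0 to 0 and 0 to 0 higher at 0.5, 1, 3 and 6 h, 0 to 2 lower and 3 to 5 higher from 1 h to 6 h, and 4 to 11 over all times; medians ran from -0.49 to -0.41, -0.99 to -0.75, -0.64 to -0.38 and -0.54 to -0.34. At 0.5 h, 7 were lower with equal array medians, 5 with a floor at log2 5 or with the dimmest probe sets, 1 with log2 of the scores or the spike-in covariate and 0 with the 18S covariate; 1 was higher with equal medians and 2 after renewed quantile normalization. At 1 h, 5 of 34 were lower with no filter, 5 of 11 with a filter at log2 7, 5 of 17 with the spike-in covariate and 1 with 18S. There 0 were higher with no filter, the replicate block (which shares a number only and lost 3 calls) or either covariate. At 3 h, 0 were lower with either covariate and 1 higher with equal medians or quantiles. At 6 h, 3 were lower with equal medians and 0 with either covariate, and 1 was higher with equal medians or quantiles. From 1 h to 6 h, 1 was lower with quantiles or the spike-in covariate and 0 with no filter or 18S. With a filter at log2 7, 1 was higher, and TNPO1, IPO5 and CSE1L lay under that level and were not tested. Over all times, 5 were called with no filter or 18S and 3 with the spike-in covariate. The median at 0.5 h was -0.20 with a filter at log2 7; at 1 h -0.65 with equal medians, -0.71 with quantiles, -0.54 with no filter, -0.30 with the floor and -0.19 with the filter at log2 7; at 3 h -0.14 and at 6 h -0.17 with equal medians, and -0.21 and -0.17 with quantiles. The cause was not tested. Shares of all tested genes were computed only for the values as deposited, equal array medians and the floor at log2 5, so the other counts have no background. With the floor 5, 8, 6 and 6 of 17 members were lower at 0.5, 1, 3 and 6 h, beside 13.1%, 21.0%, 25.3% and 21.2% of all tested genes. The 18S and spike-in covariates rose with time and could not be told apart from it. Levels near 5 limit IPO5 and NUP205. To pass the filter IPO5 needed its 6 h arrays and NUP205 its 0 h arrays.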
